A study of Mus musculus with 2 samples.

Results

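The genes described here make, regulate and export cholesterol and fatty acids. They were listed by function, although earlier results of these data were known when the list was made. They comprise 18 genes of sterol synthesis and 6 genes of the control of SREBP and of sterol movement within the cell. A further 10 are genes of fatty acid synthesis and 5 are genes of sterol efflux. Of these 39 genes, 37 had a probe set carrying a single gene symbol, among 19938 such genes on the array. *Acat2* and *Nr1h2* had none. A gene was taken as detected when its signal exceeded a background level in at least 1 array, and 36 of the 37 passed, as did 13222 of all genes. *Fads2*, a fatty acid desaturase, did not pass (7.52 and 7.41 on the log2 scale, against background levels of 7.64 and 7.56).

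The values come from 2 microarrays of total RNA from live CD3+CD4+ T cells, sorted from the pancreatic lymph nodes (PLN) of BDC mice. These are NOD mice with a transgenic TCR that recognizes a β cell antigen, so the cells are largely of a single specificity. Both groups were 8 weeks old and were sampled 48 hours after injection. One received the nondepleting CD4 antibody YTS177 (ND αCD4) and the other the isotype control Ab 2A3, both rat IgG2a. PLN of 3 mice were pooled for a sort, which leaves 1 array per condition. The labels print the age and the agent under each other's headings. They write 1 mg before the isotype control, which may cover both antibodies, while the methods give a larger amount of 2A3 than of YTS177 over all experiments, so a difference in amount cannot be told apart from the antibody. Since each condition is a single array, the differences are reported without replicate checks or p values, and precision is limited by this number of arrays.

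Cells obtain cholesterol by taking up lipoproteins or by building it from acetyl-CoA through mevalonate, squalene and lanosterol. When sterols in the endoplasmic reticulum run low, SCAP carries the SREBP transcription factors to the Golgi, where they are cleaved and freed to activate synthesis genes, whereas INSIG proteins hold SCAP back when sterols are plentiful. An excess of sterol is sensed as oxysterols by the LXR nuclear receptors, which raise the transporters that export cholesterol. T cells that are activated through the TCR raise sterol and fatty acid synthesis to build membranes for growth and division.

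Sterol synthesis genes were lower in the ND αCD4 array as a group, by small amounts. Of 17 detected genes, 16 had a log2 ratio (ND αCD4 minus isotype control) below 0 and 1 above 0, with a median of -0.17. Some of the 16, such as *Mvd* (-0.03) and *Pmvk* (-0.05), differed by less than 0.0929, the SD of log2 ratios within a gene given below. Among all detected genes, 52.7% were below 0 and the median was -0.01. A difference of at least 1.5-fold lower was reached by 1 of the 36 detected lipid genes, *Idi1*, beside 1.01% of all detected genes, and 1.5-fold higher by none, beside 0.212%. A smaller limit of 0.32 in log2 ratio was passed downwards by 5 of the 36 (13.9%), *Idi1*, *Cyp51*, *Scd2*, *Sqle* and *Acaca*, beside 3.89% of all detected genes, and upwards by none, beside 1.51%. Over all 36 genes 26 were below 0 and the median log2 ratio was -0.11. In sorted cells measured in bulk, fewer cells of a type and less RNA per cell cannot be told apart.

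**Figure D1:**
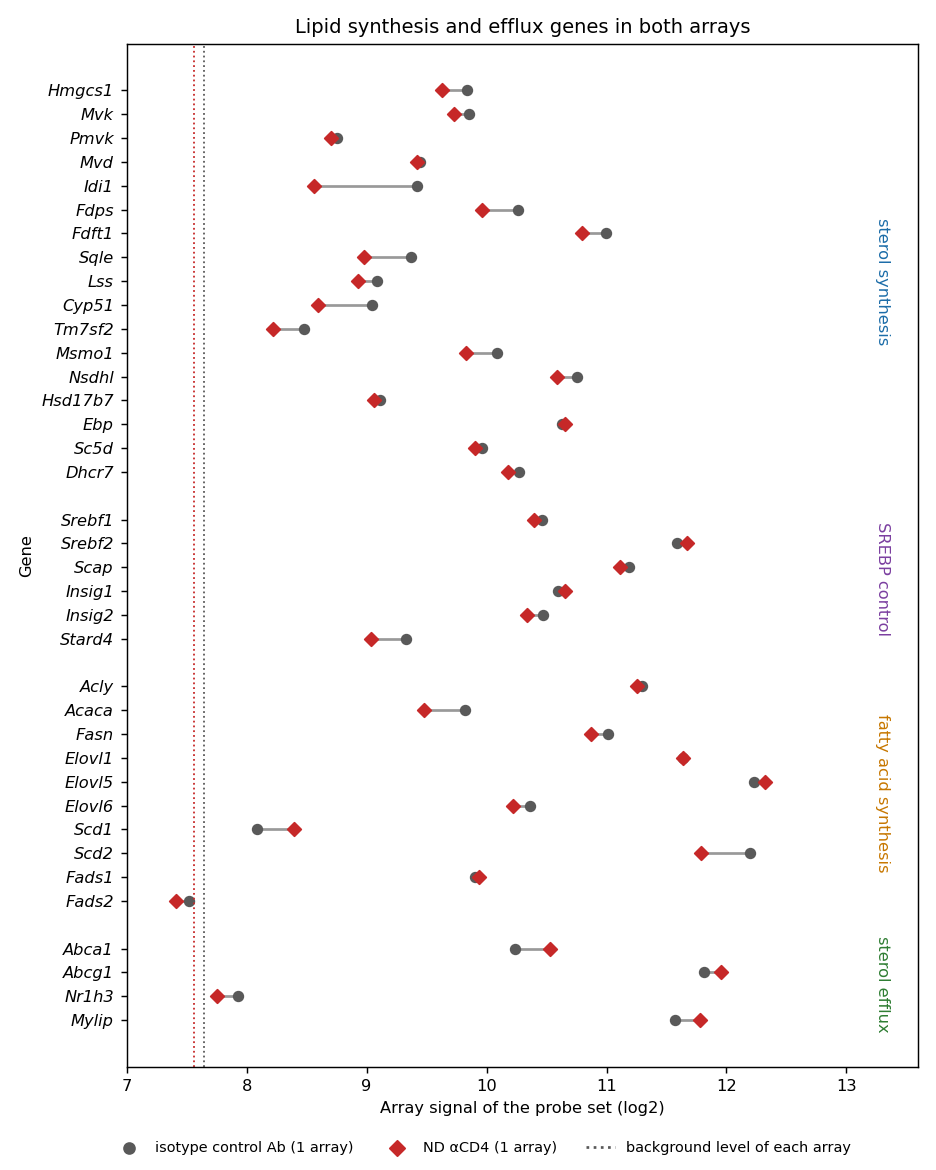
Array signal (log2, horizontal axis) of the 37 measured lipid genes (vertical axis) in the isotype control array (gray circles) and the ND αCD4 array (red diamonds), 1 array each, connected by a line, with the background level of each array dotted. Idi1 goes from 9.42 to 8.57 and Abca1 from 10.23 to 10.53; probes differ between genes, so only values of the same gene can be compared.

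The early part of the pathway, from acetyl-CoA to farnesyl diphosphate, held the gene with the lowest log2 ratio of the 36. *Idi1*, the isomerase that makes dimethylallyl diphosphate, had a signal of 9.42 with the isotype control Ab and 8.57 with ND αCD4. This is a 1.80-fold lower level and a log2 ratio of -0.85, the 45th lowest of the 13222 detected genes. A second *Idi1* probe set, which lists the same RefSeq transcript, gave 9.41 and 8.57. The probe sets differed by at most 0.00151 within an array, so they may read largely the same probes and are not counted as independent measurements. *Fdps*, which makes farnesyl diphosphate for both sterols and protein prenylation, went from 10.27 to 9.96, a log2 ratio of -0.30. *Hmgcs1*, the synthase that forms HMG-CoA, went from 9.84 to 9.63, a log2 ratio of -0.21. The mevalonate kinase gene *Mvk* was at -0.13, *Pmvk*, which adds the next phosphate, at -0.05, and the decarboxylase gene *Mvd* at -0.03. All 6 measured genes of this stretch were thus below 0, and the 3 measured kinase and decarboxylase genes between *Hmgcs1* and *Idi1* were closer to 0 than either of those.

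The genes that make squalene and convert it to lanosterol were all lower in the ND αCD4 array. *Sqle*, the squalene epoxidase that performs the first oxygen-requiring step, went from 9.37 to 8.98, a 1.31-fold lower level and a log2 ratio of -0.39. Only 2.46% of detected genes had a lower ratio. *Fdft1*, squalene synthase, went from 11.00 to 10.79, a log2 ratio of -0.20, and its other probe set gave -0.27. *Lss*, lanosterol synthase, was at -0.16. The conversion of lanosterol to cholesterol was led by *Cyp51*, which removes a methyl group from lanosterol. Its signal went from 9.04 to 8.59, a 1.37-fold lower level and a log2 ratio of -0.45, the nearest to the 1.5-fold limit among the lipid genes that did not reach it. The sterol reductase gene *Tm7sf2* (8.48 and 8.22) and the methyl sterol oxidase gene *Msmo1* (10.09 and 9.83) followed, at -0.26 and -0.25, and *Nsdhl*, a sterol dehydrogenase, was at -0.17. The later enzymes were closer to 0. *Dhcr7*, which completes cholesterol, was at -0.10, *Sc5d*, a sterol desaturase, at -0.06, and *Hsd17b7*, a ketosterol reductase, at -0.05. *Ebp*, a sterol isomerase, was the only detected sterol synthesis gene above 0, at 0.02.

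**Figure D2:**
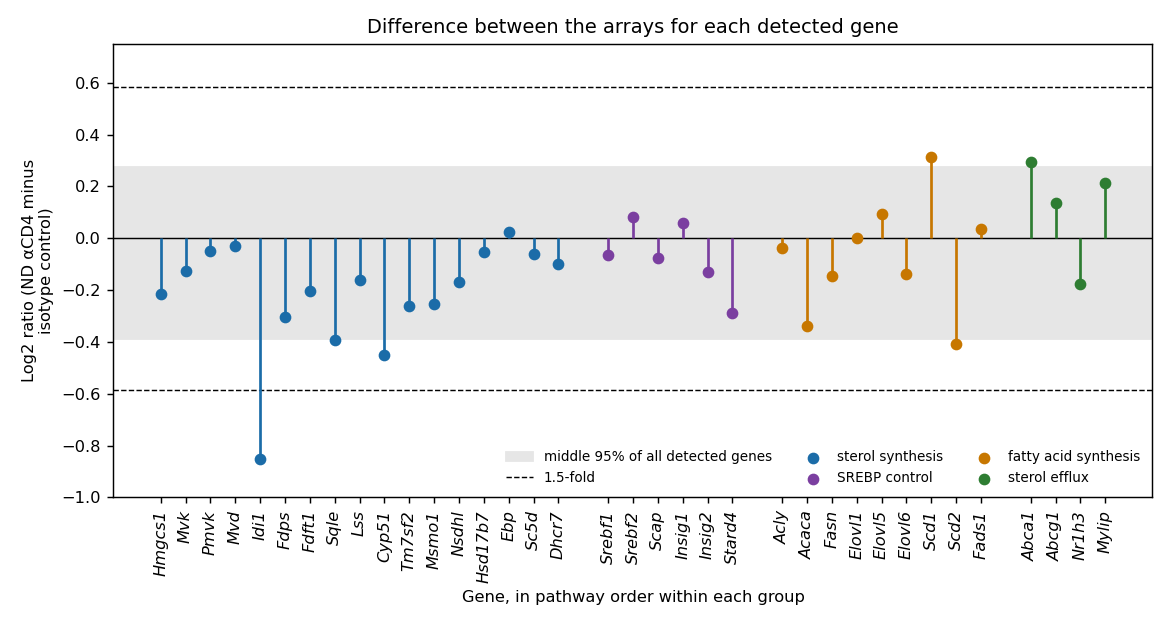
Log2 ratio (ND αCD4 minus isotype control, vertical axis) of the 36 detected lipid genes, in pathway order within 4 groups (horizontal axis), with the middle 95% of all detected genes shaded (-0.39 to 0.28) and 1.5-fold as dashed lines. Idi1 at -0.85 lies outside the dashed lines, Sqle lies at the lower edge of the shaded range, Cyp51 and Scd2 just below it, and Scd1 and Abca1 just above it.

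Most genes of SREBP control were near 0. *Srebf2*, which encodes the SREBP form that mainly drives sterol genes, went from 11.59 to 11.67, a log2 ratio of 0.08. *Srebf1*, which encodes the forms that mainly drive fatty acid genes, went from 10.46 to 10.40, a log2 ratio of -0.06, and *Scap*, the escort protein, from 11.19 to 11.12, a log2 ratio of -0.08 (-0.075 before rounding). The genes of the retention proteins lay on opposite sides of 0 by small amounts, *Insig1* from 10.59 to 10.65 (log2 ratio 0.06) and *Insig2* from 10.47 to 10.34 (log2 ratio -0.13). *Stard4*, a cytosolic carrier of cholesterol, was the lowest of this group. Its signal went from 9.33 to 9.04, a 1.22-fold lower level and a log2 ratio of -0.29. Of the 6 genes, 4 were below 0 and none passed the smaller limit, and the median log2 ratio was -0.07. Array levels are of mRNA and do not measure the cleaved, nuclear form of SREBP.

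Promoter sequences from RefSeq (GRCm38.p6) were matched for 31 of the 39 genes, with 41 start sites. *Fdps*, *Fdft1*, *Sqle*, *Stard4*, *Scd1*, *Scd2*, *Fads1* and *Abcg1* had no entry. SREBP binds the sterol regulatory element and E-boxes, and acts together with the factors NF-Y and Sp1, so the windows from 250 bases before to 50 bases after each start were searched on both strands. The letters used were TCACNCCAC for the sterol regulatory element, CACGTG for an E-box, CCAAT for the NF-Y box and GGGCGG for the Sp1 box, and matches of different motifs were counted separately even where they overlap. The NF-Y box was present in 14 of 18 sterol synthesis promoters (14 of the 15 genes), against 37.4% of all 32851 promoters. The Sp1 box was present in 15 of the 18, against 35.7%. The sterol regulatory element letters were found in 1 of the 41 promoters, that of *Hmgcs1*, against 1.24% of all, and the E-box in 8 of 41, against 7.15%. The overlapping *Scap* windows share the same E-box. By gene the E-box was in 7 of 31, against 8.09% of all genes with a promoter. The LXR response element, searched as a direct repeat of AGGTCA spaced by 4 bases, was in none of the 41, against 0.0152% of all promoters. These exact letters are too rare for their absence from 41 promoters to be informative. Such matches are descriptions of sequence and not of binding, and other spellings of these elements were not searched.

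The 250 bases upstream of the start are shown for *Idi1* and *Cyp51*, the sterol synthesis genes with the lowest log2 ratios, for *Hmgcs1*, which holds the sterol regulatory element letters, and for *Insig1* and *Abca1*, which were not lower. Capitals mark the NF-Y box (CCAAT, or ATTGG on the other strand), the E-box (CACGTG) and the sterol regulatory element, and each sequence is written in the direction of transcription.
Idi1 (chr13:8885356-8885605, plus strand): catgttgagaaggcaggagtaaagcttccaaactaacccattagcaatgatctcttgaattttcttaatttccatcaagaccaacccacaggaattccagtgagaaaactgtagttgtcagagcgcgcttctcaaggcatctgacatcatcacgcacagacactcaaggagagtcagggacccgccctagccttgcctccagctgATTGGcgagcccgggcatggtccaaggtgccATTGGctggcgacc
Cyp51 (chr5:4104698-4104947, minus strand): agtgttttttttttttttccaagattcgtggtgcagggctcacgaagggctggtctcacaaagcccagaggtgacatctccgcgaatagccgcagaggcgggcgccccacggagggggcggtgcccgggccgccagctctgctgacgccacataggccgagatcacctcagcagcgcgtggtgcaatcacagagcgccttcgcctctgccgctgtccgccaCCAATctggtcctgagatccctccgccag
Hmgcs1 (chr13:119690101-119690350, plus strand): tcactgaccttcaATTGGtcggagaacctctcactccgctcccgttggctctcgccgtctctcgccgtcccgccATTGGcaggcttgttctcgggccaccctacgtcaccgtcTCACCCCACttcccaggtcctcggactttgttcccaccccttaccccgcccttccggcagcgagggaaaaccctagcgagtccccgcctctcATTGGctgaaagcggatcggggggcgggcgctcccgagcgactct
Insig1 (chr5:28071162-28071411, plus strand): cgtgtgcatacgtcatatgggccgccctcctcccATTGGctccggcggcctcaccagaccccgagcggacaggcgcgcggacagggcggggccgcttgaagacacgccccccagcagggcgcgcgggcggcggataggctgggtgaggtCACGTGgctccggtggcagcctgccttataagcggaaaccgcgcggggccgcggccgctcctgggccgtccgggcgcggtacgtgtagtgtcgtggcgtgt
Abca1 (chr4:53159896-53160145, minus strand): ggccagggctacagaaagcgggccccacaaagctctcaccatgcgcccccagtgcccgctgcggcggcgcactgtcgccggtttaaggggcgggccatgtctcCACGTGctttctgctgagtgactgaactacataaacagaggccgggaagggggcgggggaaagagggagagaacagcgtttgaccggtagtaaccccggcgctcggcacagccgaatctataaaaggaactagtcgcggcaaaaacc

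*Idi1* has 2 NF-Y boxes close to its start and *Cyp51* has 1, while the *Insig1* promoter pairs 1 NF-Y box with an E-box and that of *Abca1* has an E-box and no NF-Y box. In *Hmgcs1* the sterol regulatory element letters lie at -137 to -129 from the start, between NF-Y boxes. Every measured sterol synthesis gene with a promoter entry had an NF-Y box in at least 1 of its promoters, so its presence cannot be set against the log2 ratios.

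**Figure D3:**
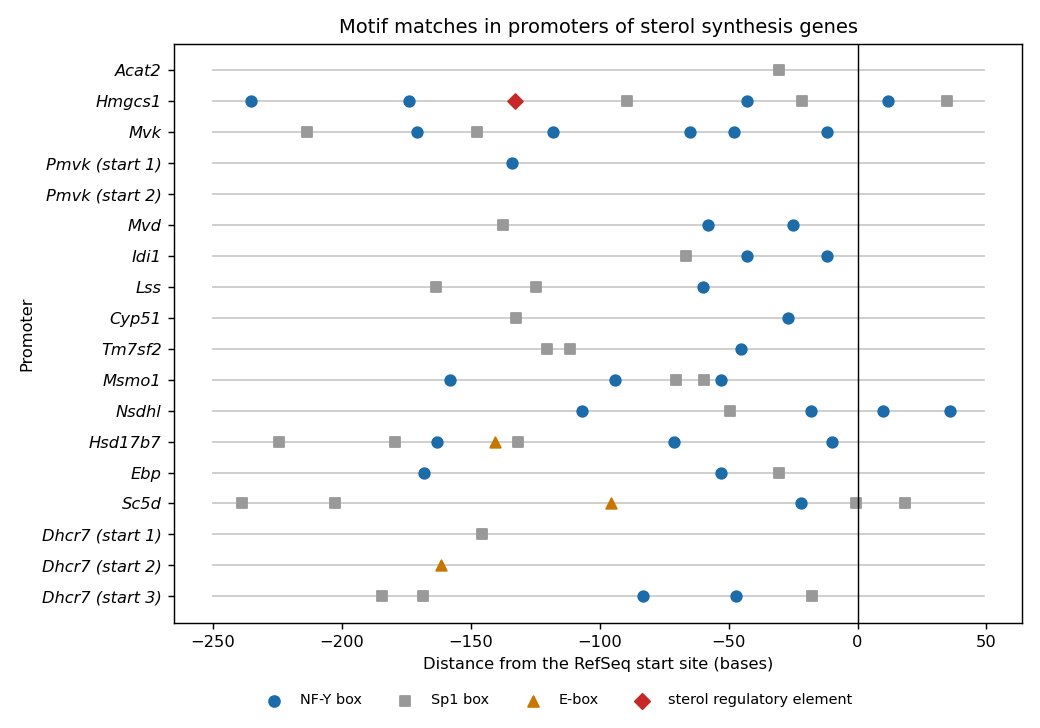
Positions of motif matches (symbols) in the 18 RefSeq promoters of sterol synthesis genes (vertical axis), by distance from the start site in bases (horizontal axis), each gray line spanning the 300 bases searched. NF-Y boxes (blue) occur in 14 of the 18 promoters and the sterol regulatory element letters (red) in that of Hmgcs1.

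Fatty acid synthesis genes went both ways. Of 9 detected genes, 5 were below 0 and 4 above 0, with a median log2 ratio of -0.04, beside -0.01 for all detected genes. The smaller limit was passed downwards by 2 of the 9 (22.2%), beside 3.89% of all detected genes. *Scd2*, a stearoyl-CoA desaturase that introduces the double bond of oleate, went from 12.19 to 11.78, a 1.33-fold lower level and a log2 ratio of -0.41. *Scd1*, its close paralog, went the other way, from 8.08 to 8.39, a log2 ratio of 0.31, the 226th highest, at a signal not far above background. Whether probes of these paralogs cross-hybridize was not tested. *Acaca*, the acetyl-CoA carboxylase that makes malonyl-CoA, went from 9.82 to 9.48, a 1.27-fold lower level and a log2 ratio of -0.34. Its second probe set was lower in both signals (8.64 and 8.16) and gave a log2 ratio of -0.48, so the direction was shared while the size differed. *Fasn*, fatty acid synthase, went from 11.01 to 10.87 (log2 ratio -0.15) and *Acly*, which supplies cytosolic acetyl-CoA from citrate, from 11.29 to 11.25 (log2 ratio -0.04). Of the elongases, *Elovl6*, which extends palmitate, was at -0.14, *Elovl5*, which acts on polyunsaturated chains, at 0.09, and *Elovl1*, which makes very long chains, at 0.0005. *Fads1*, a desaturase of polyunsaturated fatty acids, was at 0.04.

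Sterol efflux genes were mostly higher in the ND αCD4 array, again by small amounts. *Abca1*, the transporter that loads cholesterol onto apolipoproteins, went from 10.23 to 10.53, which is 1.23-fold higher, or 0.29 as a log2 ratio, the 279th highest of the 13222 detected genes. *Mylip*, a ubiquitin ligase that promotes degradation of lipoprotein receptors and is an LXR target, went from 11.57 to 11.78, a log2 ratio of 0.21. *Abcg1*, which exports cholesterol to mature HDL, went from 11.82 to 11.95, a log2 ratio of 0.14. *Nr1h3*, which encodes LXRα, was close to background (7.93 and 7.75) at a log2 ratio of -0.18. The median over the 4 detected genes was 0.17, and none of them passed the smaller limit. The transporters and *Mylip* therefore lay on the opposite side of 0 from 16 of the 17 sterol synthesis genes. Whether the groups differ from one another was not tested.

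Further genes of these pathways were described by 5 lists, with medians from -0.13 to 0.08. In the isoprenoid branch and protein prenylation, 8 of 13 detected genes were below 0, with a median log2 ratio of -0.07, and the lowest was *Rabggtb*, a subunit of the enzyme that prenylates Rab proteins, at -0.15. Genes of SREBP processing and its cofactors had a median of 0.05 and 10 of 14 above 0. Among them *Erlin1*, which acts in sterol-regulated degradation at the endoplasmic reticulum, was at -0.24, and *Crtc2*, a CREB coactivator, at 0.22. In sterol trafficking and esterification, 12 of 19 were above 0, with a median of 0.08. *Scarb1*, a receptor for HDL, was the lowest of them, going from 9.61 to 9.28 (log2 ratio -0.33). *Osbpl3*, *Tspo* and *Scp2*, which bind or move sterols, were at 0.27, 0.26 and 0.24. Acetate supply and fatty acid activation had 12 detected genes and a median of -0.01. The acetyl-CoA synthetase genes *Acss1* (11.41 and 11.77) and *Acss2* (9.44 and 9.74) were the highest of them, at 0.37 and 0.30. *Acsl5*, a long-chain acyl-CoA synthetase, was at -0.26, and *Oxsm*, of the mitochondrial fatty acid pathway, at -0.23. The last list held genes that complete each elongation cycle, together with further elongase and desaturase genes. Its median was -0.13 over 9 detected genes, of which 8 exceeded background in the ND αCD4 array. Among the genes that complete the cycle, *Hsd17b12* was at -0.27 and *Hacd3* at -0.25. None of these 5 lists held a gene past 1.5-fold in either direction, and *Scarb1* (downwards) and *Acss1* (upwards) were the 2 genes past the smaller limit. Among all detected genes 3.89% passed that limit downwards and 1.51% upwards.

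**Figure D4:**
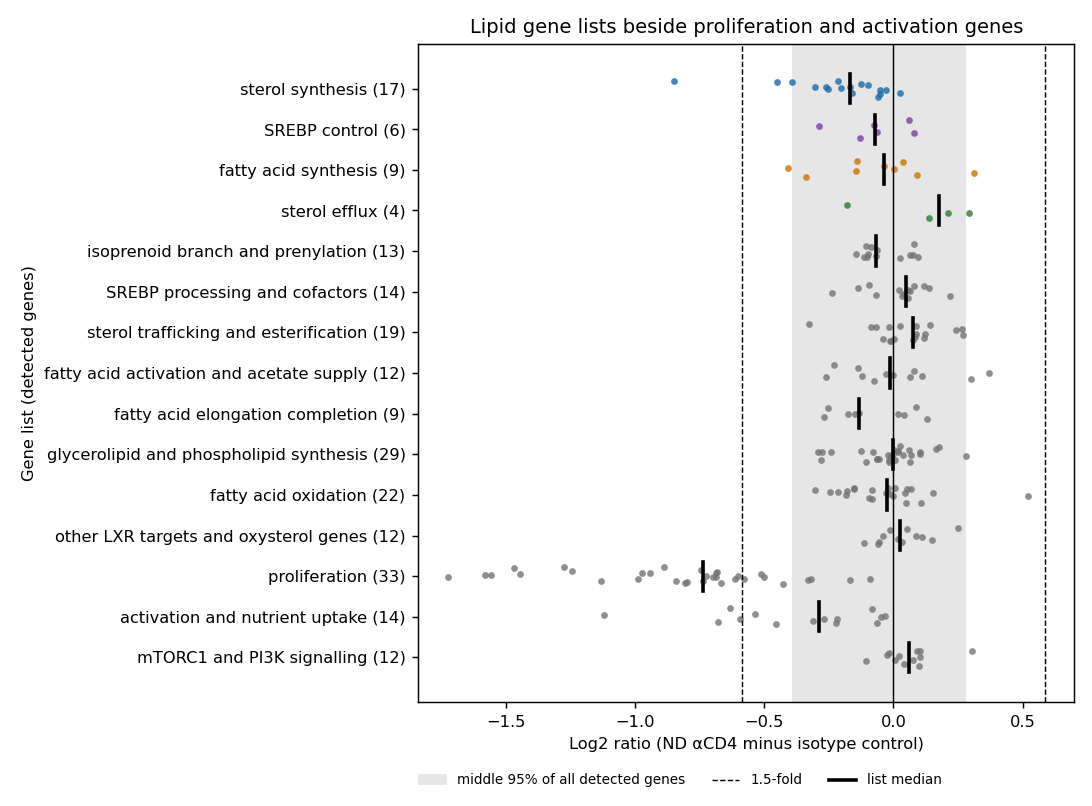
Log2 ratio (ND αCD4 minus isotype control, horizontal axis) of each detected gene in 15 lists (vertical axis, number of detected genes in brackets), drawn as points, with black bars at list medians, the middle 95% of all detected genes shaded and 1.5-fold as dashed lines. The sterol synthesis median of -0.17 lies between those of the proliferation list (-0.74) and of the glycerolipid list (0.00); points are spread vertically within a list so that they can be seen.

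Genes of proliferation and of T cell activation were lower as well, and by more. All 33 detected proliferation genes were below 0, with a median log2 ratio of -0.74. Of the 33, 25 (75.8%) were past 1.5-fold, beside 1.01% of all detected genes, and *Dtl*, *Rrm2* and *Ccna2* were 3.30-fold, 2.99-fold and 2.94-fold lower. All 33 exceeded background in the isotype control array but only 29 in the ND αCD4 array. The rest passed the filter only through the array where they were higher, and they are among the 25. All 14 activation and nutrient uptake genes were below 0 too, from -1.12 to -0.03, with a median of -0.29. Of the 14, 4 (28.6%) were past 1.5-fold. The part of proliferation and activation in the lower sterol synthesis genes was not tested. The CD4 T cell markers were near 0. Of 9 listed, 7 were measured and detected, with log2 ratios from -0.09 to 0.09 and a mean signal of 13.11 in both arrays, and *Cd4* itself was at 13.38 and 13.48, with *Cd3e* at 13.76 and 13.78. Both CD8 T cell markers were higher in the ND αCD4 array, *Cd8a* at 9.67 and 10.39 and *Cd8b1* at 11.38 and 11.83, with mean signals of 10.52 and 11.11. All 4 measured B cell markers were above 0, from 0.04 to 0.29, with mean signals of 8.35 and 8.49. Only 3 of them exceeded background in the isotype control array, and the marker at 0.29 did so in the ND αCD4 array alone. The 4 natural killer cell markers did not share a direction. *Eomes*, also expressed by T cells, was lower in the ND αCD4 array (11.72 and 11.41, log2 ratio -0.31), *Klrd1* (7.34 and 8.19) was above background in that array alone, and *Ncr1* and *Klrb1c* were above it in neither. Of 5 macrophage and monocyte markers 2 were detected, with mean signals of 8.60 and 8.76, and *Csf1r*, *Adgre1* and *Cd14* were not. Of markers of lipid-rich tissue, *Plin1* was at 8.45 and 8.47, and *Adipoq*, *Fabp4* and *Lep* did not exceed background in either array. The part of these cell types in the lipid gene values was not tested.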

How the data were processed

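The authors deposited log2 signal values per probe set for 2 arrays. Affymetrix Expression Console is listed in the submitters' processing notes, with its version and the normalization not given in the sources used here. A log2 scale was read from the range of the values (2.52 to 14.7, with a median of 8.15 in each array), which were used without further scaling. The probe set identifiers appear to belong to an earlier mouse gene array than the one named in the methods.

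Probe sets with 1 gene symbol (21789 of 35557) were kept, with the highest-mean probe set per gene. All 40 probe sets of the listed genes matched the RefSeq table by identifier and symbol. The background level of an array was set at the 95th percentile of its 1210 probe sets for olfactory or vomeronasal receptors (7.64 and 7.56). Log2 ratios are ND αCD4 minus isotype control, counted from 1.5-fold and from a smaller limit of 0.32. No test was run, since each condition has 1 array. The calculations were checked on artificial data.

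The genes and lists were chosen with earlier results of these data known. All 39 genes are named, with at most 4 of the largest log2 ratios per further lipid list, 3 per proliferation or activation list, and marker genes (of those for lipid-rich tissue, natural killer cells and macrophages, the undetected ones were added after their values were seen). Alternatives were a mean over the probe sets of a gene, raising low signals to background, quantile normalization, centring, lowess (fraction 0.3, 3 iterations), other detection filters and other size rules. Analyses ran in Python 3.11.15 with pandas 2.3.3 and numpy 2.4.6; statsmodels 0.14.6 gave the lowess and matplotlib 3.10.9 the plots.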

Additional observations from a re-analysis of the deposited data

How the results depend on the processing

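The sign of the log2 ratio held for all 36 detected lipid genes under centring on the median, lowess correction, averaging of probe sets, raising low signals to background, quantile normalization, no filter and detection in both arrays. None of these 252 values moved by more than 0.0929. This is the SD of log2 ratios within a gene, over 550 genes with a pair of detected probe sets. It does not cover differences between mice. Many of the 252 values were fixed in advance. All 36 genes exceeded background in both arrays, so raising low signals and the other detection filters could not change their log2 ratios. Averaging could change only *Acaca*, *Fdft1* and *Idi1*, the genes with more than 1 probe set. Centring subtracted the same value, -0.01, from every log2 ratio, so it could not move any of them past 0.0929. *Idi1* ranged from -0.85 to -0.84. The sterol synthesis median ranged from -0.17 to -0.15, that of SREBP control from -0.07 to -0.05, that of fatty acid synthesis from -0.07 (no filter, which adds *Fads2*) to -0.02, and that of sterol efflux from 0.17 to 0.19. By construction the size rule set the counts. At a 2-fold rule 0 of the lipid genes were lower, with 25 lower and 2 higher among all genes, and at the limit of 0.32 in log2 ratio 5 lipid genes were lower, with 514 lower and 199 higher among all genes. Signals near background limit *Scd1*, *Nr1h3* and *Fads2*. No paired analysis was possible because each condition has 1 array, and for the same reason no array could be left out.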

Other observations

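Of 22 detected fatty acid oxidation genes 13 were below 0 (median log2 ratio -0.03), but the gene of its entry step was the highest of the list. *Cpt1a*, the carnitine palmitoyltransferase that admits long-chain fatty acids to mitochondria, went from 10.90 with the isotype control Ab to 11.42 with ND αCD4, which is 1.43-fold higher and the 43rd highest log2 ratio of the 13222 detected genes. *Etfb* and *Etfa*, the subunits of the electron transfer flavoprotein, were at -0.31 and -0.21, and *Echs1*, an enoyl-CoA hydratase, at -0.25. Glycerolipid and phospholipid synthesis genes were evenly spread, with 14 of 29 detected genes below 0, 14 above 0 and a median of 0.00. *Dgat2*, which makes triglycerides, was at -0.29, *Crls1*, cardiolipin synthase, at -0.28, *Lpin2*, a phosphatidate phosphatase, at -0.28 and *Lpcat4*, a lysophospholipid acyltransferase, at 0.28. None of these genes reached 1.5-fold.

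A list of other LXR target and oxysterol genes had a median log2 ratio of 0.02 over 12 detected genes, 5 below 0 and 7 above. Its highest was *Abca7*, a transporter related to *Abca1*, at 0.25 (10.62 and 10.87), while *Smpdl3a* and *Lpcat3* were at 0.03 and 0.02. Whether these genes respond to LXR in these cells was not tested. Genes of PI3K and mTORC1 signalling, which acts upstream of SREBP, had a median of 0.06, with 9 of 12 detected genes above 0. The list mixes inhibitors of mTORC1, such as *Tsc1* and *Tsc2* (0.04 and 0.02), with activators, so its median gives no direction of signalling. The highest of the list was *Pik3cd*, the catalytic subunit of PI3Kδ, at 0.31 (11.83 and 12.13).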
